A study of Mus musculus with 8 samples.

Results

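Transcripts of 8 liver lineage transcription factor genes, Foxa1, Foxa2, Foxa3, Hnf4a, Cebpa, Cebpb, Onecut1 and Prox1, were examined in cultured mouse hepatocellular carcinoma cells. The 8 genes were chosen by symbol from the 54838 genes of the deposited RNA-seq tables, and each symbol matched 1 gene. There were 8 libraries, 1 of 3H3P and 7 of 3H3PM subclones. The line 3H3 came from a liver tumour of a C57BL/6 mouse that lacked MC4R and ate a high-fat diet, and it carries an Hras mutation, so all libraries share that background. In 3H3P, Trp53 was knocked out with CRISPR/Cas9 and carries a frameshift. The 3H3PM cells are 3H3P cells with ectopic MYC, and their subclones were recovered from tumours grown in nude mice. Subclones 1, 2, 3, 6, 7, 8 and 9 were analysed here. Each subclone is 1 isolate with 1 library, and the labels do not say whether isolates came from separate tumours, so p-values measure the spread between these isolates. 3H3P has 1 library, and MYC, growth in a mouse and subcloning cannot be told apart in the comparison.

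FOXA proteins are forkhead factors that bind closed chromatin in the foregut endoderm and help to open liver genes, and the paralogues share a nearly identical DNA-binding domain. HNF4A is a nuclear receptor that maintains hepatocyte gene expression, and HNF6, the product of Onecut1, acts with it in liver and bile duct development. C/EBP alpha is linked with the quiescent, metabolic hepatocyte and C/EBP beta with regeneration and the acute phase response, while PROX1 marks early hepatoblasts and also lymphatic endothelium.

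The libraries held 12838521 to 17987068 expected counts, the read estimates of the program RSEM. Values in CPM are counts scaled by library size and TMM factor and serve to compare 1 gene between libraries, whereas TPM, which corrects for transcript length, serves to compare genes. A gene at 0 counts in a library can have up to 3 counts by sampling, or 0.165 to 0.229 CPM. In bulk RNA, fewer cells that express a gene and less RNA per cell cannot be told apart. For Trp53 the 3H3P library gave 212 CPM and the subclones 46.7 to 66.6 CPM, and for mouse Myc these were 85.2 CPM and 3.57 to 11.6 CPM, so these counts check neither the frameshift nor the ectopic MYC. The mitochondrial share of counts was 3.18% in 3H3P and 1.97% to 2.31% in the subclones. The labelled cell type was compared with 7 hepatocyte markers (Alb, Ttr, Apoa1, Cps1, Cyp2e1, Tat and Serpina1a). Their summed level was 3.69 TPM in 3H3P and 0 to 1.82 TPM in the subclones, and 5 of the 7 had at most 3 counts in every library. The defining hepatocyte markers were thus at or near 0 in both groups.

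Of the 8 factors, 4 changed between 3H3P and the subclones. Foxa2, Hnf4a and Onecut1 fell to a trace or to 0, and Foxa1 rose from 0. Cebpa and Cebpb were expressed in both groups without passing the test. Foxa3 was low in both groups and did not pass either. Prox1 was too low to test. The edgeR fit called 19.1% of 14634 tested genes, of all tested genes 7.33% with more and 11.8% with less RNA in the subclones (1072 and 1727 genes, and 1347 and 1329 by limma on log2(TPM + 0.1)). The 7 tested factors include 1 called higher and 3 called lower. Some of them passed the filter on low counts only through the group in which they were high, so these counts describe the genes and carry no weight beyond them. The library labelled 3H3P lay above every subclone for 6 of the 8 factors and below every subclone for the other 2, against 30.4% of tested genes above every subclone and 27.1% below every one (57.4% in all). The 6 include Prox1, which was not tested and had 3 counts in 3H3P against 0, within the limit of a count of 0. No exact test of 1 library against 7 can give a p below 0.125, so each call rests on the spread among the subclones. Onecut1, at 0 counts in every subclone, shows no spread of its own there. Its call rests on the spread that the fit shares between genes.

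**Figure D1:**
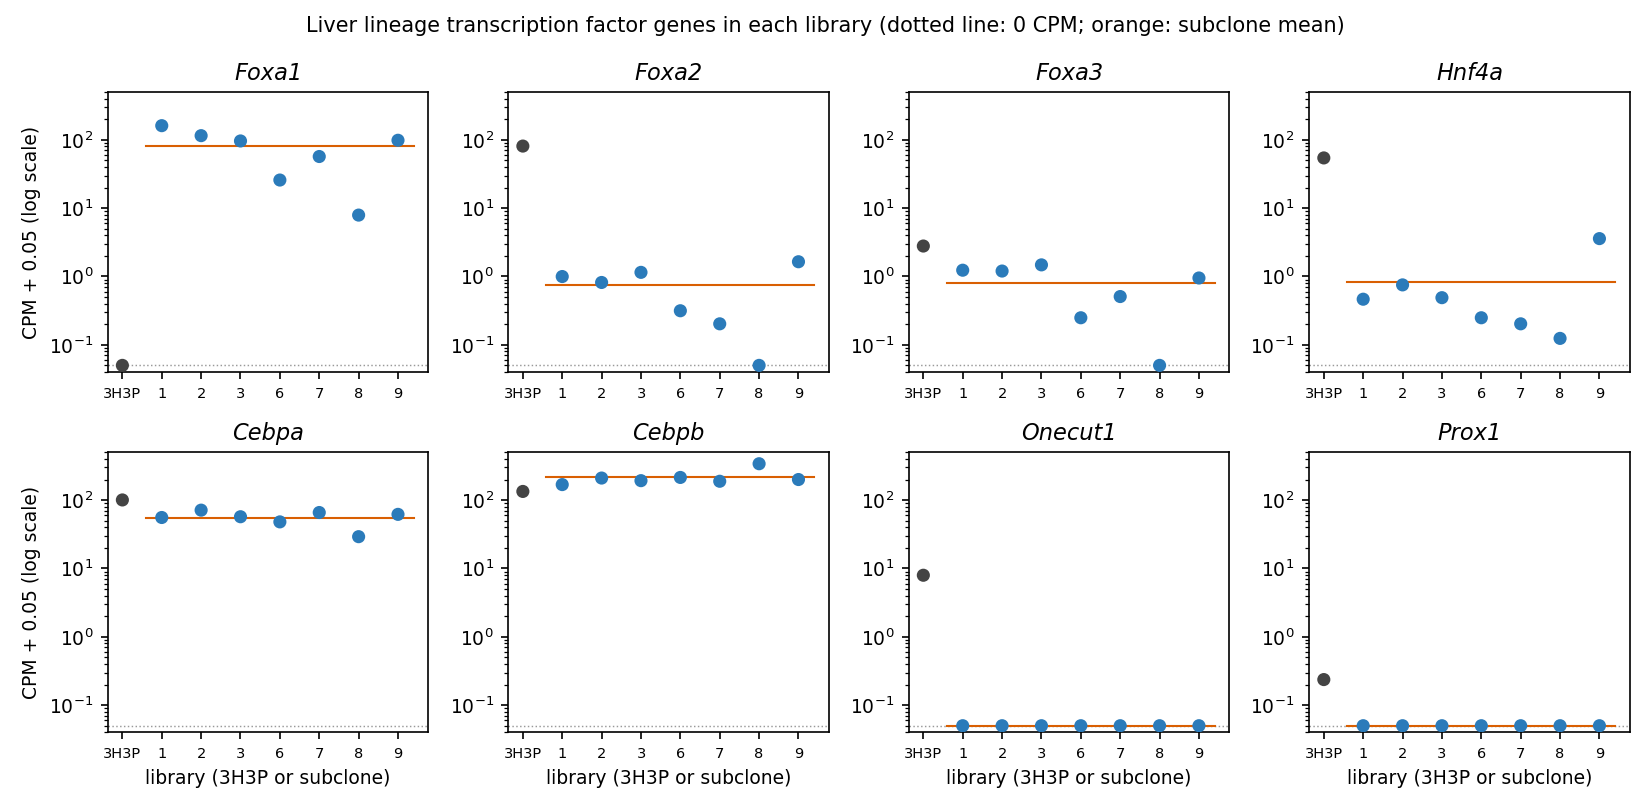
CPM of the 8 genes in the 3H3P library (dark) and in subclones 1, 2, 3, 6, 7, 8 and 9 (blue), on a log axis after adding 0.05 CPM, with the subclone mean in orange and 0 CPM as a dotted line. Foxa1 is at 0 CPM in 3H3P and between 7.86 and 161 CPM in the subclones, while Onecut1 is at 0 in every subclone.

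Among the FOXA genes, Foxa1 rose and Foxa2 fell. Foxa1 (ENSMUSG00000035451.7, GRCm38 chromosome 12, 57540628 to 57546916, minus strand) had 0 counts in 3H3P. It stood at 161, 115, 96.0, 25.7, 56.8, 7.86 and 98.3 CPM in subclones 1, 2, 3, 6, 7, 8 and 9. Every subclone was above 3H3P, and subclone 8 was the lowest of them. The subclone mean of 80.0 ± 53.3 CPM (SD, n = 7) was at least 429-fold higher than the limit of 3 counts in 3H3P (edgeR quasi-likelihood test, adjusted p = 0.0210). Limma-voom did not call Foxa1 (adjusted p = 0.453), and over the alternatives the adjusted p ran from 4.79e-06 to 0.453.

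Foxa2 (ENSMUSG00000037025.11, chromosome 2, 148042877 to 148046969, minus strand) had 1299 counts, or 80.8 CPM, in 3H3P. In subclones 1, 2, 3, 6, 7, 8 and 9 it had 16, 12, 20, 4, 2, 0 and 23 counts. The highest subclone, subclone 9, was at 1.59 CPM, so the groups did not overlap. Foxa2 fell from 80.8 CPM to 0.689 ± 0.577 CPM (log2 fold change −6.83, SE 0.80, adjusted p = 0.000817), lower in 7 of 7 subclones.

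Foxa3 (ENSMUSG00000040891.6, chromosome 7, 19013284 to 19023538, minus strand), a paralogue active in the adult liver, was low throughout. It had 44 counts in 3H3P (2.74 CPM) and 20, 18, 26, 3, 6, 0 and 13 counts in subclones 1, 2, 3, 6, 7, 8 and 9. All 7 subclones were below 3H3P, at 0.760 ± 0.545 CPM, but the difference did not pass the test (log2 fold change −1.82, SE 1.12, adjusted p = 0.282).

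On the TPM scale the summed level of the 3 FOXA genes was 63.7 in 3H3P, of which Foxa2 made up 96.7%, Foxa3 3.27% and Foxa1 0%. In subclones 1, 2, 3, 6, 7, 8 and 9 the sum was 82.8, 58.1, 48.4, 13.6, 29.6, 4.31 and 52.8 TPM. The 3H3P sum lay within the range of the subclones. Foxa1 made up 93.7% to 100% of it in the subclones, so one paralogue dominated each library but not the same one in both groups. Genes next to Foxa1 and Foxa2 were read as well. Ttc6 (chromosome 12, 57564113 to 57737928), which starts 17.2 kb from Foxa1 on the opposite strand, also had 0 counts in 3H3P. It had 219, 99, 91, 48, 42, 8 and 50 counts in subclones 1, 2, 3, 6, 7, 8 and 9, with the fewest in subclone 8, as for Foxa1. Ttc6 was at least 26.6-fold higher in the subclones (adjusted p = 0.0355) and lost its call by limma-voom, on log2(TPM + 1) and without subclone 2 or 3 (0.00149 to 0.245 over the alternatives). The long non-coding RNA gene 9030622O22Rik (chromosome 2, 147944740 to 148040203) lies 2.67 kb from Foxa2 on the same strand. It had 15 counts in 3H3P and 0 in all subclones, at least 33.2-fold lower, with an adjusted p of 0.0569 that passed under 4 of 14 alternatives (2.42e-06 to 0.0775).

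**Figure D2:**
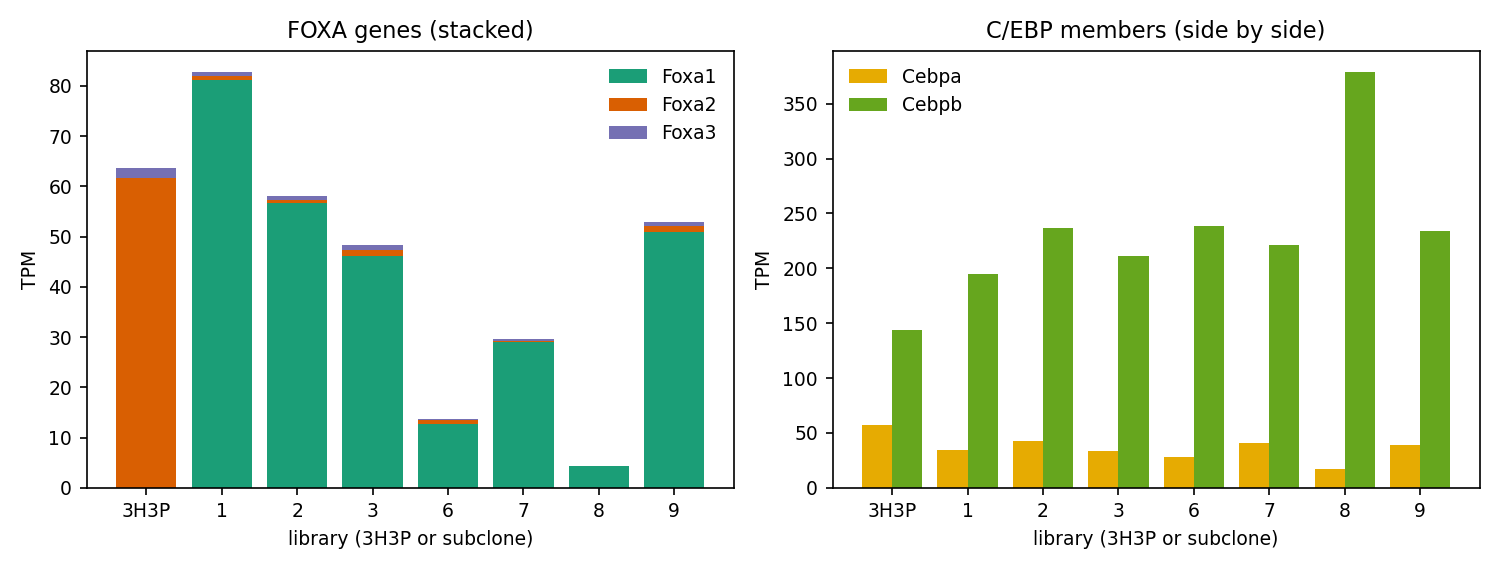
TPM of Foxa1, Foxa2 and Foxa3 stacked for each library (left) and of Cebpa and Cebpb side by side (right), for 3H3P and the 7 subclones. The 3H3P bar of 63.7 TPM is nearly all Foxa2, the subclone bars are nearly all Foxa1, and subclone 8 has the smallest FOXA sum and the tallest Cebpb bar.

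Hnf4a (ENSMUSG00000017950.16, chromosome 2, 163506808 to 163572910, plus strand) had 871 counts in 3H3P, or 54.2 CPM. In subclones 1, 2, 3, 6, 7, 8 and 9 it had 7, 11, 8, 3, 2, 1 and 51 counts. Subclone 9, at 3.53 CPM, stood apart from the other subclones, whose highest value was 0.703 CPM, and all subclones were below 3H3P. Hnf4a fell from 54.2 to 0.787 ± 1.23 CPM (log2 fold change −6.09, SE 1.03, adjusted p = 0.00462). Without subclone 9 the log2 fold change was −7.29 (adjusted p = 0.000347), and over the alternatives the adjusted p ran from 8.79e-05 to 0.0234. Its antisense gene Hnf4aos had 2 counts in 3H3P and 0 in the subclones.

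Onecut1 (ENSMUSG00000043013.10, chromosome 9, 74861921 to 74891781, plus strand) had 127 counts in 3H3P, or 7.90 CPM, and 0 counts in each of the 7 subclones. Set against 3 counts over the whole subclone group it was at least 281-fold lower (adjusted p = 0.0110). The paralogue Onecut2, which shares its cut and homeodomain DNA-binding regions, moved the other way. It stood at 152 CPM in 3H3P and at 333 ± 39.6 CPM in the subclones, with a lowest subclone of 280 CPM (log2 fold change 1.13, adjusted p = 0.00699). Onecut3 had 0 counts in 3H3P and 62 over all subclones (adjusted p = 0.0663).

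Prox1 (ENSMUSG00000010175.13, chromosome 1, 190118035 to 190170714, minus strand) had 3 counts in 3H3P and 0 in every subclone. Both groups were at or under the limit of a count of 0, so no fold was computed and the gene did not pass the filter. Its antisense genes Prox1os and Gm28172 had 0 counts in all libraries. Flt4, the receptor gene of lymphatic endothelium, was at 74.1 CPM in 3H3P and fell to 0.286 ± 0.240 CPM (adjusted p = 0.000296), while the lymphatic marker Lyve1 had 3 counts in 3H3P and 0 in the subclones.

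Cebpa and Cebpb were well expressed in both groups. Cebpa (ENSMUSG00000034957.10, chromosome 7, 35119293 to 35121928, plus strand) was at 100.5 CPM in 3H3P and at 55.6, 71.2, 57.1, 48.0, 65.8, 29.1 and 61.8 CPM in subclones 1, 2, 3, 6, 7, 8 and 9. All subclones were below 3H3P, with a mean of 55.5 ± 13.8 CPM, and the difference did not pass the test (log2 fold change −0.86, SE 0.35, adjusted p = 0.115). Without subclone 8, the lowest, it did (adjusted p = 0.0402, log2 fold change −0.73). Cebpb (ENSMUSG00000056501.3, chromosome 2, 167688915 to 167690418, plus strand) was at 134 CPM in 3H3P and at 169, 210, 192, 215, 189, 341 and 199.97 CPM in the same order of subclones. All subclones were above 3H3P, with subclone 8 the highest, and the difference from the mean of 216 ± 56.8 CPM did not pass the test (log2 fold change 0.69, SE 0.34, adjusted p = 0.184).

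The ratio of Cebpb to Cebpa in TPM was 2.51 in 3H3P. It was 5.61, 5.55, 6.33, 8.36, 5.43, 21.9 and 6.05 in subclones 1, 2, 3, 6, 7, 8 and 9, so no subclone reached down to the 3H3P value. That order follows from Cebpa being lower and Cebpb higher in every subclone, and it adds no separate result. The gene Tmem189 lies on the opposite strand and overlaps 908 bases of Cebpb. It was at 24.5 CPM in 3H3P and 62.4 ± 18.1 CPM in the subclones (adjusted p = 0.0691; 0.0162 to 0.108 over the alternatives). In 3H3P the fractional counts of Cebpb (2151.42) and Tmem189 (392.58) added up to a whole number, 2544, and in every subclone both counts were whole. The kit keeps strand per the labels, but no source used here says whether the counting did, and the part of Tmem189 in the Cebpb values was not tested.

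Of the other C/EBP family genes, 1 of 4 tested was called, against 19.1% of all tested genes, so the count is near that share. Cebpd, an acute phase factor, fell from 165 to 33.1 ± 15.6 CPM (log2 fold change −2.32, adjusted p = 0.0262), and it lost the call on log2(TPM + 0.1) and log2(TPM + 1), with adjusted p of 0.00562 to 0.0892 over the alternatives. Cebpg, which lies 62.7 kb from Cebpa, was at 124 CPM against 123 ± 38.7 CPM, and Cebpz at 113 against 121 ± 26.1 CPM. Ddit3, the stress-induced member CHOP, was at 30.2 against 23.9 ± 17.9 CPM, and Cebpe had 0 counts in all libraries.

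**Figure D3:**
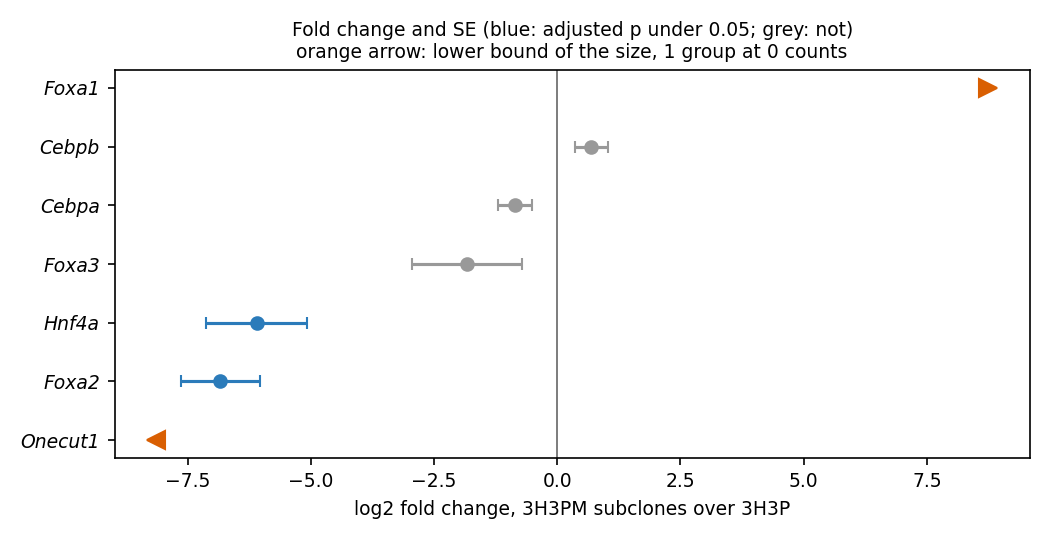
Log2 fold change of the 7 tested factors, subclones over 3H3P, with its SE as the bar (blue where the adjusted p is under 0.05, grey where not). Orange arrows give the least size of the change where 1 group had 0 counts, 8.74 for Foxa1 and −8.14 for Onecut1, and Hnf4a and Foxa2 lie near −6.09 and −6.83.

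By length-corrected level, the order in 3H3P was Cebpb (144 TPM), Foxa2 (61.6 TPM), Cebpa (57.5 TPM), Hnf4a (38.0 TPM), Onecut1 (2.90 TPM), Foxa3 (2.08 TPM), Prox1 (0.0300 TPM) and Foxa1 (0 TPM). In the subclones Cebpb led at 245 ± 61.2 TPM and overlapped no other factor. Foxa1 at 40.1 ± 26.6 TPM and Cebpa at 33.7 ± 8.66 TPM followed and did not differ beyond their spread. Foxa2, Hnf4a and Foxa3, at 0.680 ± 0.483, 0.641 ± 1.39 and 0.607 ± 0.428 TPM, likewise overlapped. The single 3H3P library gives no spread for its own order.

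RSEM also reports for each gene a transcript length weighted by estimated abundance, which shows between which annotated transcripts the reads were divided. For Foxa1 the weighted length put 86.3% to 98.1% of molecules on the coding transcript Foxa1-201 (3191 bases) and the rest on the short non-coding Foxa1-202 (414 bases), with the lowest share in subclone 8, which had 106 counts. For Cebpa 89.7% to 100% of molecules were placed on the single-exon transcript Cebpa-201, and the value was 99.0% in 3H3P. Hnf4a had a weighted length of 2183 bases in 3H3P. In subclones 1, 2, 3, 6, 7 and 8 it equalled that of Hnf4a-201 (4356 bases) within 1 base, which starts at 163547188, the downstream of the annotated Hnf4a promoters that is used in adult liver. In subclone 9 it was 1613 bases. These subclone values rest on 1 to 51 counts and are imprecise.

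The 4 called factors are shown here by the bases that lie upstream of a start site, to set the genes that went up and down side by side. The sequences are from RefSeq (GRCm38.p6), whose promoter table matched 8 of 8 factors, and they read 5′ to 3′ along the gene. The windows are chr12:57546122-57546361 for Foxa1 (minus strand), chr2:148046970-148047219 for Foxa2 (minus strand), chr2:163546905-163547154 for Hnf4a (plus strand, before the downstream promoter) and chr9:74861671-74861920 for Onecut1 (plus strand). Capitals mark matches to the searched motifs.
Foxa1: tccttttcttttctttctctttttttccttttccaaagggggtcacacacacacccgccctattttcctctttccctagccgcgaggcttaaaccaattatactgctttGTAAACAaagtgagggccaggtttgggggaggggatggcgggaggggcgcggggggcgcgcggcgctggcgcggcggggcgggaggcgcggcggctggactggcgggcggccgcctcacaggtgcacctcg
Foxa2: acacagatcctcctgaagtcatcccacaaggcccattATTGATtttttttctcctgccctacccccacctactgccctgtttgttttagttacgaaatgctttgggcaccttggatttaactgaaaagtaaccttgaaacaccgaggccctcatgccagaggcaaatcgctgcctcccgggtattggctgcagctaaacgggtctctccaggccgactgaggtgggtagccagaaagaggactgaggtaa
Hnf4a: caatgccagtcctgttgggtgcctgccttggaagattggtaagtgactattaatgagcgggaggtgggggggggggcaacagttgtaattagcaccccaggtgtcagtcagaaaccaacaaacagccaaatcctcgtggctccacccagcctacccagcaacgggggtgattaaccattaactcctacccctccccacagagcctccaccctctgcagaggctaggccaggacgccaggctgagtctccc
Onecut1: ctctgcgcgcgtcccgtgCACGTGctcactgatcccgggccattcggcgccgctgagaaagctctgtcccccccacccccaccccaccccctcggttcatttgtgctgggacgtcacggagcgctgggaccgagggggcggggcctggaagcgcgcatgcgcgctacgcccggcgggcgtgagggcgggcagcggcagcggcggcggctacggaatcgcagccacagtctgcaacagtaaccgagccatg

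Both strands of the 250 bases before each start were searched for TGTTTAC and TATTTAC (forkhead), TTGCNNAA (C/EBP), CAAAGTCCA (HNF4), ATTGAT and ATCGAT (onecut), CACGTG (E-box, the MYC-type site) and TATAAA. In the Foxa1 window a reverse-strand match to the forkhead letters TGTTTAC, the type of site that FOXA proteins bind, began 141 bases before the RefSeq start. The Foxa1 sequence shown has 240 of the 250 bases, since the last 10 before that start lie in the annotated coding transcript and were left out. TGTTTAC was present in 3.17% of 32841 windows of that length. The Foxa2 window held ATTGAT 213 bases before the start, a motif of 6.72% of windows. The Onecut1 window held the E-box CACGTG 232 bases before the start, a motif of 6.02% of windows, and the Hnf4a window shown held none of the searched motifs. The window of the upstream Hnf4a promoter held a reverse-strand ATTGAT 59 bases before its start. TATAAA, found in 12.4% of windows, was in the windows of Foxa3 and Cebpa at 36 and 30 bases before the start. Reverse-strand matches lay in 1 window each of Foxa2 (not the one shown) and Prox1, at 208 and 34 bases before the start. The second forkhead motif (2.73% of windows), the C/EBP motif (9.57%), the HNF4 motif (0.384%) and the second onecut motif (0.728%) had no match in any of the 12 windows of the 8 genes. No matches overlapped. The number of CG dinucleotides was 21 for Foxa1, 6 for the Foxa2 window shown, 4 for the Hnf4a window shown, 31 for Onecut1 and 41 for Cebpb, against a median of 6 over all windows. The Foxa2 window shown lies before the most upstream start of that gene. The Foxa2 windows not shown had 20 and 13 CG dinucleotides and held no ATTGAT. A match is a run of letters and does not show binding.

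Other regulators of liver, foregut and bile duct changed in both directions. Of 41 such genes 31 were tested, 3 were higher and 8 lower in the subclones, and 20 did not pass. The higher and lower shares were 9.68% and 25.8% of those tested, against 7.33% and 11.8% of all tested genes. The median log2 fold change of the 31 was −0.51, against 0.03 over all genes tested. On log2(TPM + 0.1) only 6 were called, 3 in each direction. Zhx2, a repressor of fetal liver genes, fell by 1.41 on the log2 scale (adjusted p = 0.00838). Hlf, a PAR-domain factor of the liver clock, rose from 3 counts in 3H3P to 1089 over all subclones, a 54.6-fold higher value with a 95% exact interval of 18.6 to 265 for counting error (adjusted p = 0.00289). Among those that did not pass, Foxp1 was at 155 against 211 ± 32.9 CPM, Foxm1 at 163 against 181 ± 27.7 CPM and Foxq1 at 36.7 against 162 ± 105 CPM. Gata6, an endoderm factor, fell from 37.4 to 1.00 ± 1.25 CPM (adjusted p = 0.0122; 0.000923 to 0.102 over the alternatives, the top value on log2(TPM + 0.1)). Its paralogue Gata4 was at 15.7 against 11.1 ± 3.66 CPM (adjusted p = 0.500). Gata6, Gata4 and Onecut3 were chosen for naming after their values were seen.

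The wider forkhead family was read beside the FOXA genes. Of 41 other forkhead genes 21 were tested, 4 were higher (19.0%) and 1 lower (4.76%), against 7.33% and 11.8% of all tested genes. Foxc1, a mesenchymal and vascular factor, rose from 18.9 to 223 ± 31.1 CPM (log2 fold change 3.56, adjusted p = 0.000150). Foxk1 and Foxk2 rose by 0.93 and 0.86 on the log2 scale, and Foxk1 lost its call without subclone 3 or 9 (adjusted p = 0.0315; 0.00763 to 0.0550 over the alternatives). Foxd1 fell from 56 counts in 3H3P to 3 over all subclones (adjusted p = 0.00248), a 124-fold higher value in 3H3P with a 95% exact interval of 40.3 to 620.0 for counting error.

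Hepatocyte genes that these factors are known to control were mostly at or near 0 counts in both groups. Of 30 such genes only 8 were tested, and 18 had at most 3 counts in every library, among them Ttr, Cps1, Tat and Cyp7a1. The summed level of the 30 was 1838 TPM in 3H3P, mainly from Trf (725 TPM), Ass1 (627 TPM) and Hp (312 TPM). In the subclones the sum was 566 to 3059 TPM, and Hp alone stood at 547 to 2999 TPM. Of the 8 tested, 4 were lower in the subclones and 0 higher, against 11.8% and 7.33% of all tested genes, with a median log2 fold change of −4.20. Some of these genes passed the filter only through 3H3P, so the count is a description. Apob, for apolipoprotein B, is an HNF4A-dependent gene. It fell from 586 CPM in 3H3P to 0.237, 1.60, 0.934, 0.464, 0.611, 0 and 7.06 CPM in subclones 1, 2, 3, 6, 7, 8 and 9. Subclone 9 was the highest subclone for 4 of the 8 tested genes, Apob among them, and for 11.7% of all tested genes. Hnf4a was also highest there, whereas Trf, Ass1, Fgb and Hp were highest in subclones 7, 6, 1 and 8. The relation of Hnf4a to these genes was not tested. Pklr, for liver pyruvate kinase, fell from 61.9 to 0.228 ± 0.334 CPM (adjusted p = 0.000434). Trf, for transferrin, fell from 688 to 10.7 ± 4.71 CPM (log2 fold change −6.00). Ass1, of the urea cycle, fell from 661 to 33.8 ± 17.3 CPM (log2 fold change −4.29). Hp, for the acute phase protein haptoglobin and a C/EBP target, was at 252 against 1171 ± 667 CPM (adjusted p = 0.113). Fgb was at 31.9 against 1.82 ± 1.77 CPM (adjusted p = 0.0588) and the fetal liver gene Afp at 0.311 against 1.61 ± 2.04 CPM (adjusted p = 0.408).

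**Figure D4:**
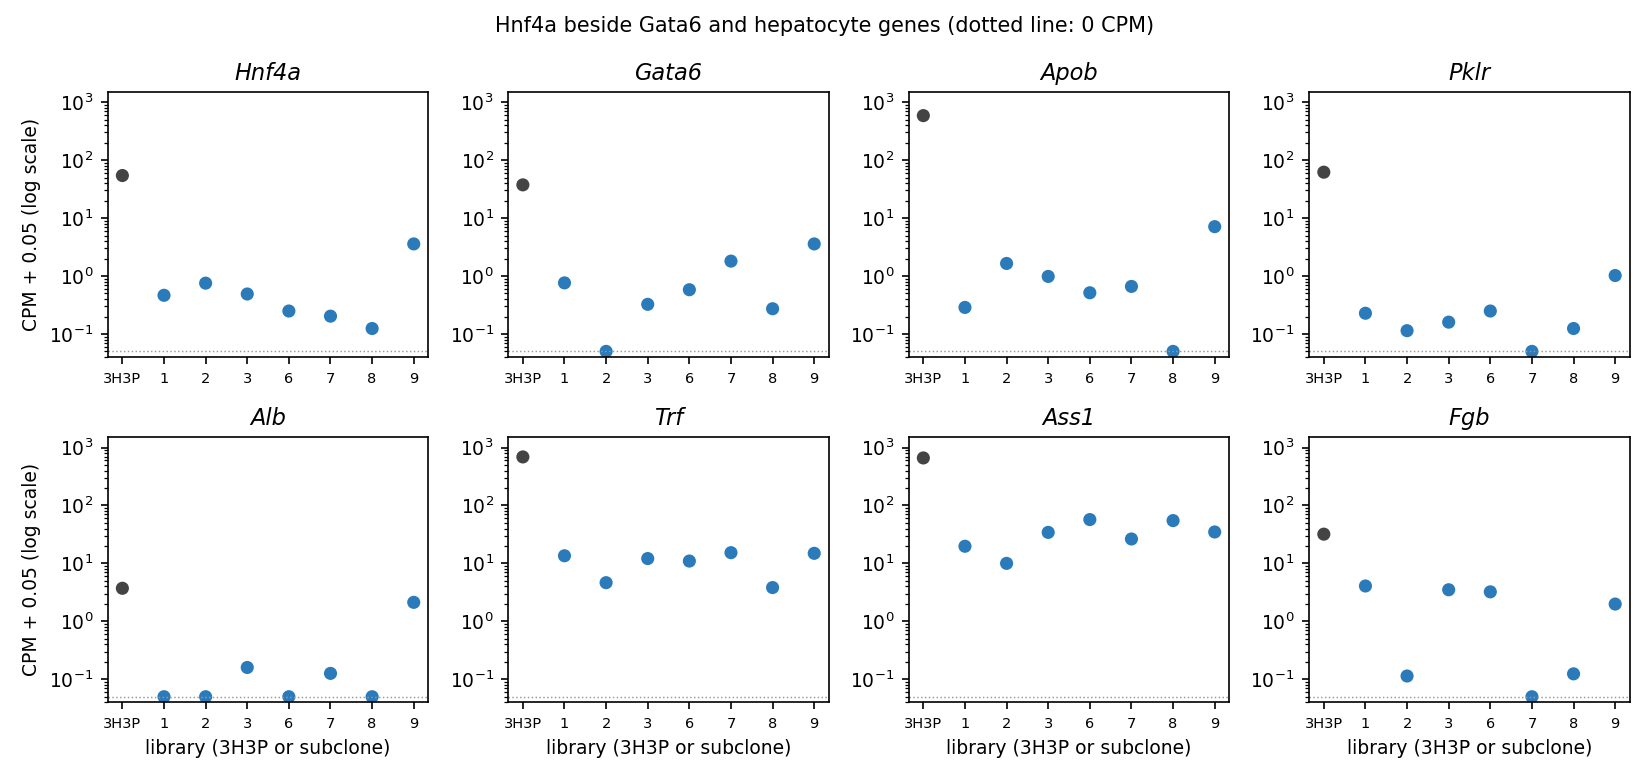
CPM of Hnf4a, Gata6, Apob, Pklr, Alb, Trf, Ass1 and Fgb in 3H3P (dark) and in the 7 subclones (blue), on a log axis after adding 0.05 CPM. All subclones are below 3H3P for each gene shown. Subclone 9 is the highest subclone for Hnf4a, Gata6, Apob, Pklr and Alb, but not for Trf, Ass1 and Fgb. The tested hepatocyte genes Hp and Afp, higher in all 7 subclones without passing the test, are not shown.

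Some markers of other cell types moved with the group as well, beside 7.33% of all tested genes called higher and 11.8% called lower. Of 7 bile duct markers 6 were tested and 3 were lower, and their summed level was 2985 TPM in 3H3P and 687 to 1735 TPM in the subclones. Spp1, which did not pass, held 2596 TPM of the 3H3P sum. Sox9 (37.7 against 42.3 ± 21.4 CPM) and Krt19 (114 against 53.2 ± 58.3 CPM) did not pass either. Krt7, a keratin of bile duct cells, fell from 376 to 8.81 ± 9.74 CPM (adjusted p = 0.00396). Cftr had 45 counts in 3H3P and 8 in all subclones, and its call (adjusted p = 0.0420) was lost by DESeq2 and without subclone 1, 2, 3, 6, 8 or 9 (0.000941 to 0.511 over the alternatives). Epcam had 0 counts in all libraries. The summed level of 9 fibroblast and stellate markers was 106 TPM in 3H3P and 29.6 to 138 TPM in the subclones, with 1 higher (Pdgfrb) and 1 lower (Dcn, at 105.5 TPM in 3H3P) of 6 tested and Lum and Lrat at 0 throughout. For 8 endothelial and lymphatic markers it was 21.7 TPM and 0.150 to 0.550 TPM, with Flt4 (16.9 TPM in 3H3P) and Pdpn lower of 3 tested and Kdr, Tek and Stab2 at 0 or 1 count in all subclones together. Pecam1, the third tested, went the other way without passing, with 0 counts in 3H3P and 48 over all subclones. For 8 myeloid markers the summed level was 366 TPM and 35.6 to 127 TPM, with only Cd14 (358 TPM in 3H3P) lower of 5 tested, and the leukocyte gene Ptprc had 0 counts in 3H3P and 3 over all subclones. The adipocyte list (39.7 TPM and 3.70 to 38.8 TPM) had 1 of 2 tested lower, Pparg, and Adipoq and Plin1 had 0 counts throughout. Of the lung, gut and prostate markers, which mark other FOXA-expressing epithelia, 5 of 7 had at most 3 counts in every library, and Trp63 rose from 3 counts to 431 over all subclones (adjusted p = 0.0166). The part of these genes in the results on the 8 factors was not tested.

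Among the subclones, the spread of the expressed factors was unequal. Foxa1 varied 20.5-fold between subclones, and the SD of its log2 CPM was 1.52, against a median of 0.22 over 2459 genes within 1.5-fold of its mean level, of which 99.3% had a smaller SD. Cebpa varied 2.45-fold and Cebpb 2.02-fold, with SDs of 0.43 and 0.32 against medians of 0.23 and 0.21. Subclone 8 was the lowest of the subclones for 5 of the 7 tested factors, Foxa1, Foxa2, Foxa3, Hnf4a and Cebpa, and the highest for Cebpb. For Foxa2, Foxa3 and Hnf4a it had 0, 0 and 1 counts. The next subclone had 2, 3 and 2 counts, so these ranks lie within counting error. Onecut1 was at 0 in every subclone and has no lowest one. Over all tested genes subclone 8 was the lowest subclone for 20.2% and the highest for 20.4%. Its library held 13709436 counts, the lowest total but 1, and its mitochondrial share was 1.97%. The part of these in the values of subclone 8 was not tested.

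Relations between the 5 factors with a median of 10 or more counts over the subclones, Foxa1, Foxa2, Foxa3, Cebpa and Cebpb, and of each with Il11, the cytokine gene of the series title, were measured over the 7 subclones on log2 CPM. That made 15 relations, each tested over all 5040 pairings. The permutation takes the 7 subclones as independent, and subclones 6 and 8 were among the most alike pairs over the genes compared. Foxa1 and Foxa3 had a Pearson r of 0.98 (exact permutation p = 0.00258, adjusted 0.0248) and a Spearman rho of 0.79 (exact permutation p = 0.0480, adjusted 0.231), and r was 0.78 without subclones 6 and 8, the farthest from the Foxa1 median. Foxa1 and Foxa2 had an r of 0.88 (exact permutation p = 0.00992, adjusted 0.0248) and a rho of 0.68 (0.110, adjusted 0.231), with r at 0.69 without subclones 6 and 8. Foxa2 and Foxa3 had an r of 0.91 (exact permutation p = 0.00853, adjusted 0.0248) and a rho of 0.75 (0.0663, adjusted 0.231), with r at 0.82 without subclones 7 and 8. These 2 genes had 0 to 26 counts per subclone, so both carry large counting error. Foxa1 and Cebpb had an r of −0.89 (exact permutation p = 0.0119, adjusted 0.0255) and a rho of −0.64 (0.139, adjusted 0.231), and r was −0.32 without subclones 6 and 8, so this relation rests on those subclones. The relation of Foxa1 to Cebpa also rests on them, since r went from 0.87 (exact permutation p = 0.0228, adjusted 0.0396; rho 0.54, exact permutation p = 0.236, adjusted 0.354) to −0.41.

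Il11 was highest in subclones 8 and 6, which had the least Foxa1. Il11 stood at 2.61, 0.831, 3.35, 15.2, 3.51, 31.1 and 2.98 CPM in subclones 1, 2, 3, 6, 7, 8 and 9, beside the Foxa1 values given above. Spearman's rho between the genes was −0.96 (exact permutation p = 0.00278, adjusted 0.0417), and Pearson's r was −0.92 (exact permutation p = 0.00496, adjusted 0.0248). Without subclones 6 and 8 r was −0.38, so the relation by r rests on those subclones. Cebpa and Il11 had an r of −0.91 (exact permutation p = 0.00397, adjusted 0.0248) and a rho of −0.68 (0.110, adjusted 0.231), with r at −0.77 without subclones 2 and 8. Foxa3 and Il11 had an r of −0.90 (exact permutation p = 0.00794, adjusted 0.0248) and a rho of −0.75 (0.0663, adjusted 0.231), with r at −0.32 without subclones 6 and 8. Of the 15 relations only that of Foxa1 and Il11 passed by rho after adjustment.

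**Figure D5:**
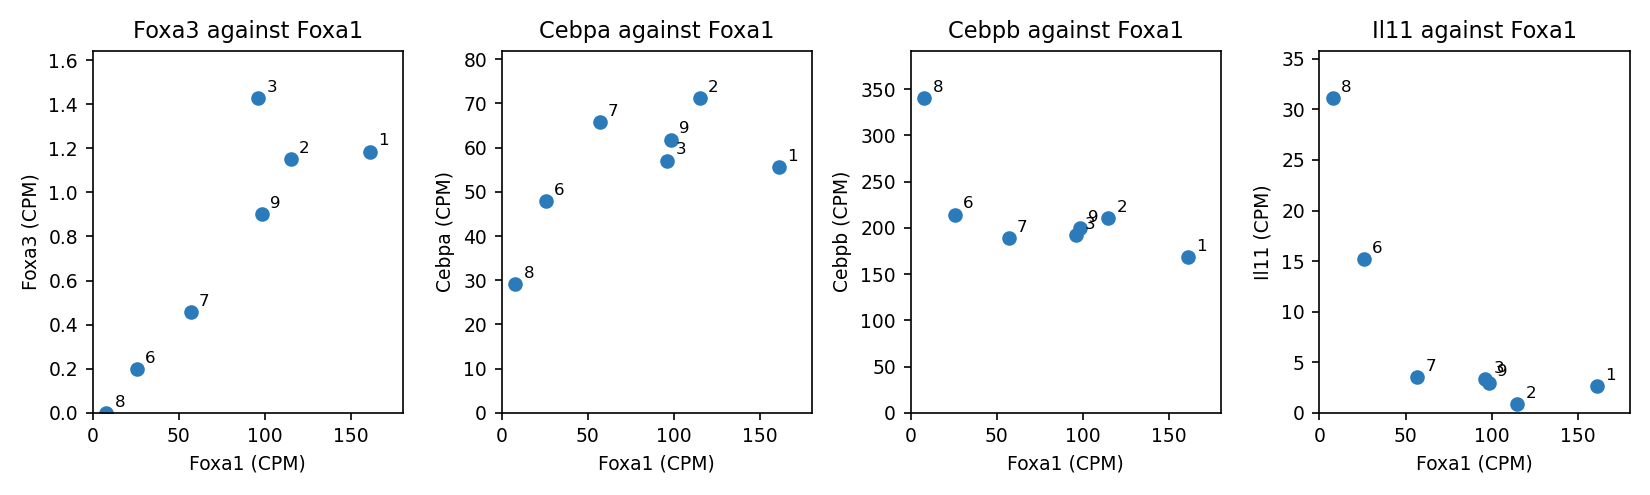
CPM of Foxa3, Cebpa, Cebpb and Il11 (vertical axes) against CPM of Foxa1 (horizontal axes) over the 7 subclones, each point labelled with its subclone number. Subclones 8 and 6, at 7.86 and 25.7 CPM of Foxa1, have the most Il11, at 31.1 and 15.2 CPM, and the remaining subclones lie at or below 3.51 CPM.

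The genes most like each factor over the 7 subclones were listed by Pearson's r of log2 CPM among 8892 or 8893 genes, as a description. For Foxa1 these were Ano1, a chloride channel gene (r = 0.989), Orc5 (0.986) and Zfp319 (0.986), and 276 genes had an r above 0.9. Ano1 ranged from 60.6 to 316 CPM over the subclones and was at 291 CPM in 3H3P, where Foxa1 had 0 counts, so the likeness did not extend to that library. For Cebpa they were Pcolce2 (0.998), Urb2 (0.992) and Car12 (0.991), and for Cebpb Gpr137b (0.978), Fmn1 (0.969) and Hgs (0.966). For Foxa2 they were Elf1 (0.978), Rnf115 (0.976) and Tchp (0.971), and for Foxa3 Bccip (0.986) and Sh2d4a (0.985). With 7 points many genes reach such values, and for the 5 factors 41 to 276 genes had an r above 0.9.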

How the data were processed

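RNA of cultured cells was sequenced from 1 library of 3H3P and 7 of 3H3PM subclones, with a directional kit per the labels' protocols. FastQC, STAR, RSEM, DESeq2 and the build GRCm38 (mm10) are named in the submitters' processing notes, and their versions and the counting strand are not stated. The authors deposited 1 gene table per library with RSEM expected counts, TPM, FPKM and weighted transcript lengths, per the file headers. The FPKM values that the authors deposited were not used.

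Rounded expected counts went into the quasi-likelihood test of edgeR 4.0.16 under R 4.3.3, with filterByExpr, TMM scaling and Benjamini-Hochberg adjustment over 14634 genes at 0.05. Since 3H3P has 1 library, only the subclones inform the spread, with 6 degrees of freedom, and 3H3P was taken to vary like them. SEs were derived from the F statistic. Alternatives used DESeq2 1.42.0, limma 3.58.1 (voom, or log2 of the deposited TPM plus 0.1 or 1), RLE factors, library size alone, no filter, a filter at 10 CPM, robust dispersion, and each subclone left out in turn. The scripts were tested on simulated data. No subclones were copies of each other, since the chi-square per degree of freedom between pairs was 12.0 to 95.4. The most alike pairs were subclones 7 and 9 (12.0) and subclones 6 and 8 (17.9). Intervals and limits for counts of 0 cover counting error only.

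The members and the gene lists were chosen with earlier results of these data known. The text names the 8 members, up to 4 called genes with the smallest p and up to 3 of the most abundant uncalled genes of each list, neighbours, and the 3 genes most correlated with each member among genes at a mean of 10 CPM or more. Other genes named were chosen after their values were seen. A few genes and 1 motif that these rules would name are not reported here. Gene positions were taken from GENCODE vM21, whose IDs matched all 8 genes.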

Additional observations from a re-analysis of the deposited data

Results flagged for a closer look

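In the 7 subclones, Hnf4a was at 3.53 CPM in subclone 9, far from the next value of 0.703 CPM, with a gap of 0.818 of the group's range against Dixon's 95% critical value of 0.568. Cebpb was at 341 CPM in subclone 8, with the next subclone at 215 CPM and a gap of 0.733 of the range. Of the genes in question 6 could be examined in this way, and chance sets apart about 1 in 20 groups.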

How the results depend on the processing

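The number of factors called, 4, was 3 to 4 under other tests, scalings and filters and 4 to 5 when 1 subclone was left out. Over all genes 2799 were called, against 2328 to 3314 and 1991 to 2985. Without subclone 3 the genes called higher numbered 669 in place of 1072. The 11 regulators called were 6 (limma on log2(TPM + 0.1)) to 15 (DESeq2) under other tests, scalings and filters, and 8 to 12 with 1 subclone left out. The cause was not tested. The 4 hepatocyte genes called were 4 to 6 and 4 to 5. No direction was reversed. Foxa2 (adjusted p 9.93e-05 to 0.0125) and Hnf4a (8.79e-05 to 0.0234) kept their calls under all alternatives run, and Onecut1 (1.81e-08 to 0.0180) under all but the 10 CPM filter, which it and Foxa3 did not pass. Foxa3 (0.123 to 0.343) and Cebpb (0.0511 to 0.228) were not called under any. No paired analysis was possible because 3H3P has 1 library and its label carries no replicate number, and for the same reason it could not be left out.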
